A study of Homo sapiens with 8 samples.

Results

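Described here are 7 mature miRNAs of the miR-34, miR-192, miR-194 and miR-215 families, which have been reported as silenced by DNA methylation or lost in multiple myeloma (MM): hsa-miR-34a-5p, hsa-miR-34b-3p, hsa-miR-34b-5p, hsa-miR-34c-5p, hsa-miR-192-5p, hsa-miR-194-5p and hsa-miR-215-5p. They were chosen by name, by a rule that uses no signal value though earlier results of these data were known, from the 2549 human miRNAs on the array, and all 7 had probes there. Their mature forms were measured in INA-6, an established MM cell line grown with interleukin-6 (IL-6), which the labels list under mature plasma cells. The 4 control arrays carry DMSO, the solvent, in their titles, and the other 4 come from cells given 1 μM of UNC1999, a small-molecule inhibitor of the histone methyltransferase EZH2. Both groups were harvested after 120 hours, and the labels call the 4 arrays of a group biological replicates. The protocol text of the labels names the inactive compound UNC2400 as control where the titles and the paper name DMSO, and the controls were taken as DMSO. All arrays come from 1 cell line, so the values describe INA-6 and not MM in general.

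miRNAs are short RNAs that lower the stability and translation of the mRNAs they pair with. The miR-34 family is known as a group of tumor suppressor miRNAs that lower cell cycle and survival proteins such as MET, BCL2 and the cyclin-dependent kinases. miR-192 and miR-215 are related in sequence, and each is made next to a copy of miR-194. EZH2 writes H3K27me3, a histone mark of silenced genes, and the comparison asked whether these miRNAs differed in level when EZH2 was inhibited.

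A miRNA finds its targets mainly through its seed, bases 2 to 8 from the 5′ end, which is shown in capitals in the mature sequences below. The sequences and positions are those of RefSeq (GRCh38.p14), which gave a mature sequence for 6 of the 7 members. hsa-miR-34c-5p is named only. The first set holds hsa-miR-34a-5p, the single member with a clear signal in these cells, with 2 miRNAs outside the group that carry its seed. miRNAs with the same seed could act on the same targets. hsa-miR-34c-5p, without a sequence here, could not be compared by seed. The search for shared seeds did not cover all chromosomes, so the sets may leave out others.
hsa-miR-34a-5p (chr1:9151735-9151756, minus strand): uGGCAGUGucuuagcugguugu
hsa-miR-449a (chr5:55170586-55170607, minus strand): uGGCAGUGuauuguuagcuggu
hsa-miR-449b-5p (chr5:55170706-55170727, minus strand): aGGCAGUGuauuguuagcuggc

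The letters GGCAGUG lie at bases 2 to 8 in hsa-miR-34a-5p and at bases 3 to 9 in hsa-miR-34b-5p, so the seed of the latter, AGGCAGU, is the same motif shifted by a base. Here hsa-miR-34b-5p is set beside 2 other miRNAs with that seed. It is also set beside hsa-miR-34b-3p, the opposite arm of its own hairpin, whose seed is unrelated.
hsa-miR-34b-5p (chr11:111512950-111512972, plus strand): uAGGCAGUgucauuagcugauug
hsa-miR-449c-5p (chr5:55172313-55172337, minus strand): uAGGCAGUguauugcuagcggcugu
hsa-miR-2682-5p (chr1:98045307-98045329, minus strand): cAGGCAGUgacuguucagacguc
hsa-miR-34b-3p (chr11:111512987-111513008, plus strand): cAAUCACUaacuccacugccau

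The third set shows that hsa-miR-192-5p and hsa-miR-215-5p share a seed. Over their 21 bases they differ at 2 positions, C1A and C20A, counted from the 5′ end with the base of hsa-miR-192-5p first, so probes for the pair have close sequences to tell apart. hsa-miR-194-5p, with another seed, has the same mature sequence from 2 genes.
hsa-miR-192-5p (chr11:64891203-64891223, minus strand): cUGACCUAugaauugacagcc
hsa-miR-215-5p (chr1:220117916-220117936, minus strand): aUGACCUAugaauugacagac
hsa-miR-194-5p (MIR194-1, chr1:220118206-220118227, minus strand; MIR194-2, chr11:64891404-64891425, minus strand): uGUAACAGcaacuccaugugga

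In the RefSeq annotation, MIR34A lies within its own host transcript, MIR34AHG. MIR34B and MIR34C lie 417 bases apart within the spans of MIR34BHG and BTG4. MIR192 and MIR194-2 lie 108 bases apart within MIR194-2HG, and MIR215 and MIR194-1 lie side by side within the span of IARS2. A signal of hsa-miR-194-5p on the array can therefore come from either locus.

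Each member had 2 probes and 20 spots on an array. The values are background-subtracted intensities summed over the probes of a miRNA and scaled so that the 346 miRNAs that every array detected have the same 75th percentile throughout, and a change is thus relative to what else the array measured. A miRNA counted as detected where the scanner software called it so. Across the arrays, 369 to 500 human miRNAs were detected, with the fewest on DMSO replicates 2 and 3, and the percentile before scaling ran from 296 to 559 on the DMSO arrays and from 534 to 729 on the UNC1999 arrays. Within each group the arrays were alike in pairs, DMSO 1 with 4, DMSO 2 with 3, UNC1999 1 with 3 and UNC1999 2 with 4: the median miRNA differed by 0.0687 to 0.135 on the log2 scale within these pairs and by 0.18 to 0.251 between other arrays of a group. No pair of arrays held identical values, and each array was counted as 1 sample. The paper speaks of 4 independent biological experiments. If alike arrays nevertheless share a culture, the p-values given here are too small. Of 5 miRNAs typical of blood cells, 4 were detected on all 8 arrays, and miR-155-5p on 2 UNC1999 arrays. Of those 4, miR-142-3p, miR-142-5p and miR-150-5p were called lower with UNC1999 by limma, with log2 fold changes of -0.52, -0.36 and -0.56, near the -0.52 of hsa-miR-34a-5p given below, and miR-181a-5p, at -0.22, was not called. Of all human miRNAs tested, 34.6% were called lower, so such calls were common in this comparison. The part of these blood cell miRNAs in the results was not tested. None of 8 markers of liver, neurons, endothelium, epithelium, stroma or red cells was detected on any array.

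Of the 7 members, hsa-miR-34a-5p was detected on all 8 arrays and hsa-miR-192-5p on 6, and the other 5 were detected on none. A miRNA was tested when all 4 arrays of a group detected it, which 456 human miRNAs and 2 of the members passed. By limma with Benjamini-Hochberg adjustment over the 456, with a call set at an adjusted p up to 0.05 and a 1.2-fold difference or more, no member was called higher with UNC1999, 1 was called lower, and 1 was not called. In the same comparison 70.6% of the tested miRNAs were called, 36% higher and 34.6% lower, so a single call among 2 members is not above the background.

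**Figure D1:**
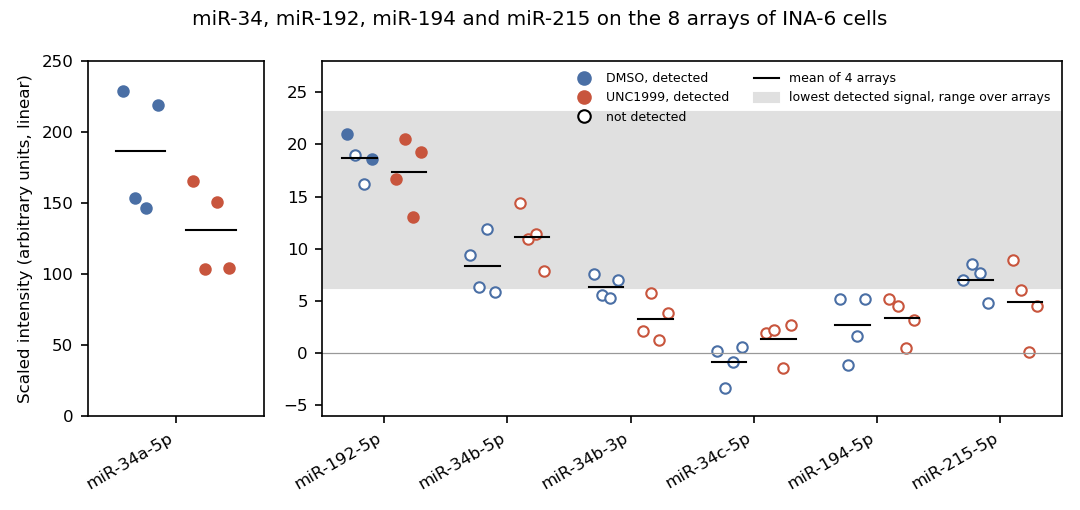
Scaled intensity (linear, arbitrary units) of the 7 miRNAs on the 4 DMSO and 4 UNC1999 arrays, with hsa-miR-34a-5p on an axis of its own. Each point is an array, filled where the scanner software detected the miRNA and open where it did not, bars are means of 4 arrays, and the grey band spans the lowest detected signal of the 8 arrays, 6.21 to 23.1. hsa-miR-34a-5p lies far above the band on every array with overlapping groups, hsa-miR-192-5p lies inside it, and the other 5 have open points alone.

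hsa-miR-34a-5p, the best known member and a brake on the cell cycle, had scaled intensities of 229, 153, 146 and 219 on DMSO replicates 1 to 4. On UNC1999 replicates 1 to 4 the values were 165, 103, 150 and 104. The groups overlapped: the highest UNC1999 array, at 165, stood above DMSO replicates 2 and 3. On the log2 scale the means were 7.52 ± 0.336 (SD, n = 4) with DMSO and 6.999 ± 0.354 (SD, n = 4) with UNC1999. The log2 fold change was -0.52, with a standard error of 0.203 and a 95% confidence interval of -0.967 to -0.0666, and by limma the adjusted p was 0.0417. An exact permutation test of the 8 arrays, two-sided, gave p = 0.143. In bulk RNA, fewer cells that hold a miRNA and less of it per cell cannot be told apart.

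The values of hsa-miR-34a-5p followed the alike pairs of arrays. DMSO replicates 1 and 4 were the high arrays of their group, at 229 and 219, and replicates 2 and 3, which had the fewest detected miRNAs, were the low ones. Among the UNC1999 arrays, replicates 1 and 3, at 165 and 150, stood above replicates 2 and 4, at 103 and 104. When the 2 arrays of each alike pair were averaged and counted once, the log2 fold change stayed at -0.52 and the adjusted p by limma was 0.14, so that the call was lost. A block that joins DMSO 1 and 4 with UNC1999 1 and 3, and the other 4 arrays with each other, gave 0.00021. That match of pairs across the groups was read from the array values, with no label behind it, and it puts the high arrays of hsa-miR-34a-5p together, so this p is not evidence for the difference. The labels do not say what the alike arrays share, and its part in the difference was not tested.

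Both probes of hsa-miR-34a-5p gave lower means with UNC1999, by a like amount. For the dimmer probe, A_25_P00012085, the DMSO arrays gave 64.6, 46.5, 45.9 and 59.6, and the UNC1999 arrays 45.8, 32.4, 43.1 and 31.1, so that the lowest DMSO value and the highest UNC1999 value were nearly equal. The brighter probe, A_25_P00012086, gave 164, 106.7, 100.4 and 159 with DMSO and 120, 71.0, 107.4 and 72.9 with UNC1999, and its groups overlapped. The differences between the groups' mean log2 values were -0.51 and -0.52. Between 18 and 20 of the 20 spots were well above background on every array.

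The direction of hsa-miR-34a-5p turned with the way the arrays were scaled. Before scaling its summed intensities were 209, 103, 83.6 and 236 on the DMSO arrays and 219, 141.2, 212 and 107.3 on the UNC1999 arrays, in wide overlap. The log2 fold change without scaling was 0.18, and with the labelling spike-ins as the scale it was 0.29, with adjusted p of 0.68 and 0.377 by limma. The tested miRNAs as a whole shifted upward under these settings, with medians of 0.674 and 0.771 against 0.0109 with the scaling used here, so that hsa-miR-34a-5p lay below the median tested miRNA under each of the 3. The position on the slide also went along with the groups, since 3 of the 4 DMSO arrays lay in row 1 and 3 of the 4 UNC1999 arrays in row 2. Within row 1 the log2 difference was -0.92 (3 DMSO arrays, 1 UNC1999 array), and within row 2 it was -0.09 (1 DMSO array, 3 UNC1999 arrays). With the row as a block the log2 fold change was -0.51 and the adjusted p 0.0927 by limma.

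**Figure D2:**
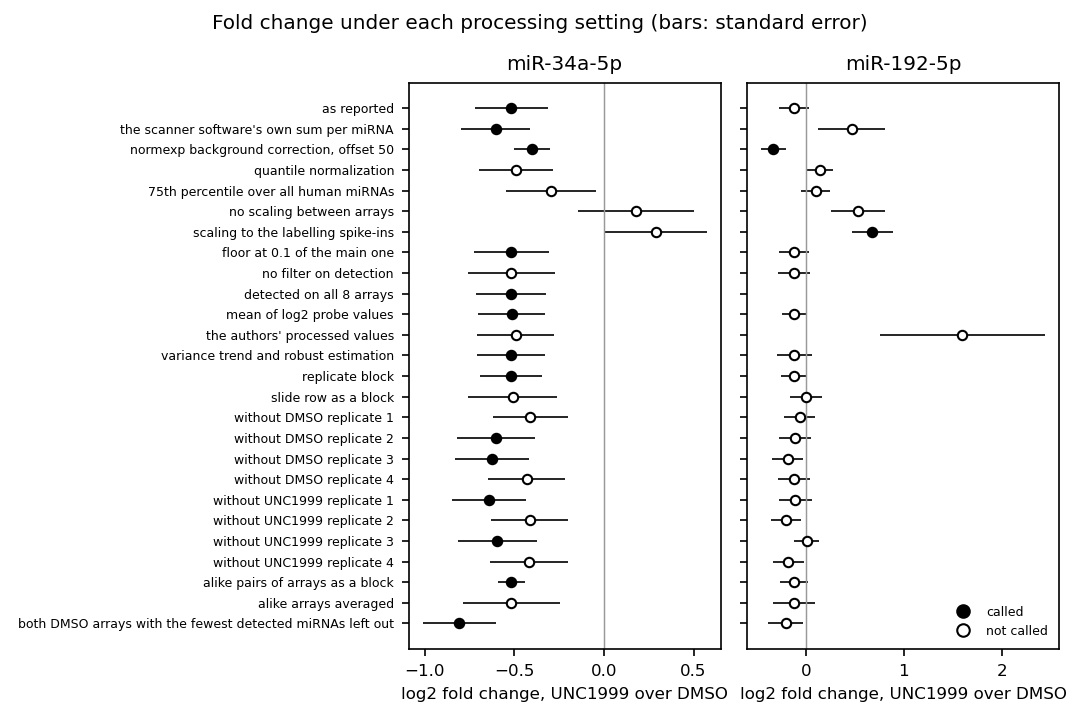
Log2 fold change, UNC1999 over DMSO, of hsa-miR-34a-5p (left) and hsa-miR-192-5p (right) under each processing setting, with bars of 1 standard error and filled points where the miRNA was called. hsa-miR-34a-5p lies below 0 in 23 of 25 alternatives and is called in 13, and hsa-miR-192-5p lies on both sides of 0.

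Leaving out 1 array at a time moved the log2 fold change of hsa-miR-34a-5p between -0.64 and -0.41. The call was lost without DMSO replicate 1, DMSO replicate 4, UNC1999 replicate 2 or UNC1999 replicate 4, with adjusted p of 0.0995, 0.0941, 0.116 and 0.119 by limma. These are the 2 highest DMSO arrays and the 2 lowest UNC1999 arrays. Without DMSO replicates 2 and 3 together, the difference was -0.81 with an adjusted p of 0.00988 by limma. Those are the 2 lowest DMSO arrays of hsa-miR-34a-5p, so leaving them out was bound to enlarge the drop. They were left out after seeing the data, and this p is not evidence for the difference.

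The 3 tested miRNAs whose log2 signal ran most like that of hsa-miR-34a-5p over the 8 arrays were miR-9-5p, miR-33a-5p and miR-8069, with Pearson's r of 0.973, 0.959 and 0.941. miR-9-5p and miR-33a-5p were called lower (log2 fold changes of -0.88 and -0.81), and miR-8069, at -0.19, was not called. These correlations are descriptions over arrays that share the group difference and the alike pairs.

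The other forms that carry the miR-34 seeds or come from the same hairpins gave no detected signal. The opposite arm miR-34a-3p ran from -1.29 to 7.74 over the 8 arrays in scaled intensity. A value below 0 means that the signal summed over the probes was less than the background subtracted from it. miR-449a, miR-449b-5p and miR-449c-5p, from a locus known for its activity in ciliated epithelium, ran from -1.84 to 4.11, from -4.36 to 4.77 and from -10.8 to -0.22. miR-2682-5p ran from -8.98 to -2.1. Of the 3 miRNAs shown above with the seed GGCAGUG, hsa-miR-34a-5p was the single one detected in INA-6.

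hsa-miR-34b-5p was not detected on any array, and no spot of it was well above background. Its scaled intensities were 9.45, 6.34, 11.9 and 5.91 on the DMSO arrays and 14.4, 10.9, 11.4 and 7.91 on the UNC1999 arrays. They passed the lowest signal of any detected miRNA on the same array on 4 of the 8, DMSO replicate 1 and UNC1999 replicates 1 to 3. Of its 2 probes, both dim, A_25_P00010465 had means of 3.66 with DMSO and 6.34 with UNC1999. Its values ran from 2.55 to 4.77 and from 4.84 to 8.43 without overlap, while A_25_P00014608 had means of 4.73 and 4.82. Of the 14 probes of the members, 2 reached 0.0286, the smallest p of the exact permutation test, A_25_P00010465 among them. After Benjamini-Hochberg adjustment over the 14, its p by that test was 0.2. Undetected miR-34a-3p and miR-449c-5p also had a probe without overlap, lower with UNC1999 for the former and higher for the latter. With the signal below the detection call in both groups, no fold change is given.

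The opposite arm hsa-miR-34b-3p, which RefSeq places in the same hairpin, had values of 7.61, 5.53, 5.31 and 6.98 with DMSO and 2.13, 5.81, 1.27 and 3.80 with UNC1999. All 8 lay under the lowest detected signal of their array. hsa-miR-34c-5p, from the neighbouring hairpin and a close relative of hsa-miR-34a-5p in function, had values of 0.185, -3.38, -0.821 and 0.596 with DMSO and 1.95, 2.18, -1.46 and 2.67 with UNC1999, around 0 in both groups. Its opposite arm miR-34c-3p ran from -7.28 to 4.16. A signal of the MIR34B and MIR34C locus was thus not well above background in either group, and these arrays set only an upper bound on it.

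hsa-miR-192-5p, known from liver and gut and as a miRNA that slows the cell cycle, stood near the limit of detection. Its scaled intensities were 21.0, 19.0, 16.2 and 18.6 on the DMSO arrays, of which replicates 1 and 4 were called detected, and 16.7, 20.5, 13.1 and 19.3 on the UNC1999 arrays, all detected. The groups overlapped over most of their range. The software makes its detection call before any scaling across arrays. The intensities summed here, before scaling, were 19.2, 12.8, 9.27 and 20.1 on the DMSO arrays and 22.1, 28.03, 18.4 and 19.9 on the UNC1999 arrays. The DMSO arrays without a call, replicates 2 and 3, were thus the dimmest before scaling, and they were also the arrays with the fewest detected miRNAs. The log2 means were 4.22 ± 0.153 (SD, n = 4) and 4.10 ± 0.289 (SD, n = 4). The log2 fold change was -0.12, with a standard error of 0.149, a 95% confidence interval of -0.45 to 0.21 and an adjusted p of 0.472 by limma.

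At most 3 of the 20 spots of hsa-miR-192-5p were well above background on any array. On average, most of the signal came from probe A_25_P00010868, with mean scaled intensities of 12.0 with DMSO and 12.4 with UNC1999. Probe A_25_P00010869, at means of 6.68 and 4.95, ran from 2.63 to 8.11 over the 8 arrays, too dim for a comparison of the probes. The sign of the fold change of hsa-miR-192-5p turned with the scaling, and the call appeared under 2 of 24 alternatives, once in each direction: lower, at -0.33, with normexp background correction and higher, at 0.68, with the spike-ins. The median tested miRNA moved the same way under these settings, to -0.292 and 0.771. Within row 1 the log2 difference was -0.02 and within row 2 it was 0.02.

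hsa-miR-215-5p, with the seed of hsa-miR-192-5p, was not detected on any array. Its values were 6.97, 8.56, 7.65 and 4.77 with DMSO and 8.89, 6.10, 0.1066 and 4.495 with UNC1999, each under the lowest detected signal of its array. hsa-miR-194-5p, which is made next to both of them and is known from liver and gut, had values of 5.18, -1.12, 1.64 and 5.23 with DMSO and 5.22, 4.54, 0.458 and 3.17 with UNC1999. It was not detected on any array either, and no more than 1 of its 20 spots was well above background. The opposite arms miR-192-3p, miR-194-3p and miR-215-3p reached no higher than 5.13, 4.15 and 4.43.

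In the processed log2 values that the authors deposited, hsa-miR-34a-5p stood at 4.97, 4.54, 4.47 and 4.94 with DMSO and at 4.61, 3.88, 4.499 and 3.95 with UNC1999, again high and low on the same arrays. hsa-miR-192-5p stood at the lowest value of the array on DMSO replicates 2 and 3 and between -0.0454 and 0.18 on the other 6. DMSO replicates 1 and 4, at 0.0925 and -0.0178, lay within the range of the UNC1999 arrays. Its log2 fold change of 1.598 from these values includes the 2 DMSO arrays without a detection call, so it does not measure a rise. The remaining 5 members stood at the lowest value of the array on all 8. The software's own sum, with a log2 fold change of 0.4683 for hsa-miR-192-5p, held 0.1 for it on DMSO replicates 2 and 3. On the other arrays that sum ran from 1.886 to 3.431.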

How the data were processed

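Mature miRNAs of INA-6 cells were hybridized to 8 one-colour SurePrint miRNA arrays, 4 with DMSO and 4 with UNC1999. The authors deposited the output of Agilent Feature Extraction 10.7.3.1, which holds a spot intensity with its background removed but no scaling across arrays, and a table of processed log2 values. Outlier spots, 1392 to 2292 of the 53144 on an array, were left out, the remaining spots of a probe were averaged, and probes of the same miRNA were added up. Arrays were brought to a common 75th percentile, taken over the 346 miRNAs that every array detected. Values under 8.98, the median over arrays of the lowest detected signal, were raised to it before log2, which understates the fold change of dim miRNAs. A linear model without a block was fitted to the 456 miRNAs detected on all 4 arrays of a group (limma 3.58.1, R 4.3.3, lmFit and eBayes), and the steps were tested on simulated data. Single values were compared with exact permutation tests, two-sided, whose smallest p with 4 against 4 arrays is 0.0286. The named miRNAs are the 7 members, the opposite arms and same-seed miRNAs and the 3 miRNAs most like a member detected on all arrays. miR-2682-5p and the markers were named after their values were seen. The members and lists were chosen with earlier results of these data known, and 2 further lists are not reported here. The alternatives are other backgrounds (normexp on the median spot signal), scalings, floors, filters, variance models, blocks and left-out arrays, and the paired t-test of the paper's statistics section. The 2 uses of the alike arrays and the fit without the DMSO arrays that detected the fewest miRNAs were added after seeing the data. The number of arrays limits the precision. Sequences and their positions are of GRCh38.p14, and no coordinate of the scanner files was used.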

Additional observations from a re-analysis of the deposited data

How the results depend on the processing

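hsa-miR-34a-5p kept its negative sign in 23 of 25 alternatives and its call in 13, with adjusted p from 0.00021 (a block of alike arrays matched across the groups from their values) to 0.68 by limma. The call was lost with quantile normalization (-0.4902), the percentile over all human miRNAs (-0.2958), no filter on detection (-0.5169), the authors' processed values (-0.492), the slide row as a block (-0.5085) and the alike arrays averaged (-0.5169), and leaving out 1 array gave -0.6408 to -0.4099. The sign turned with no scaling (0.1808) and the spike-ins (0.2904). hsa-miR-192-5p turned with the software's sum (0.4683), quantile normalization (0.1429), the percentile over all miRNAs (0.1014), no scaling (0.5331), the spike-ins (0.6802), the authors' processed values (1.598), the slide row (0.003061) and without UNC1999 replicate 3 (0.01058). It was called with normexp (-0.3303) and the spike-ins, and leaving out 1 array gave -0.206 to 0.01058. In 1.598 and 0.4683, DMSO 2 and 3 lie at a floor. Causes were not tested.

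The number of members called was 1. It was 1 also with the spike-ins, but there hsa-miR-192-5p, called higher, took the place of hsa-miR-34a-5p. It was 2 with normexp and 0 with quantile normalization, the percentile over all miRNAs, no scaling, no filter, the authors' values, the slide row as a block, the alike arrays averaged and the paired t-test, unadjusted or adjusted. Leaving out 1 array gave 0 to 1. Of all tested miRNAs, 322 were called, 195 with no filter, 156 with alike arrays averaged and 152 by the adjusted paired t-test. Higher calls were 50.9% of these, against 19% with normexp, 68.6% with the percentile over all miRNAs, 98.3% with no scaling and 97.7% with the spike-ins, where the median tested miRNA moved to -0.292, 0.232, 0.674 and 0.771. It moved to 0.107 with quantile normalization, 0.179 with the authors' values and -0.138 over the miRNAs detected on all arrays. The 8 opposite arms and same-seed miRNAs stood at the floor on all 8 arrays and passed no filter on detection, so no test of them is given.

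The labels do not say whether same-numbered arrays of the groups come from the same experiment. The paper speaks of independent biological experiments, and its statistics section, though not its array section, names a paired t-test. Same-numbered arrays deviated together with r of 0.179, 0.273, -0.415 and -0.392. With the replicate block, hsa-miR-34a-5p stayed at -0.5169 (adjusted p = 0.0253 by limma) and 308 miRNAs were called. The ratio of cluster partners within an array was not run because no cluster had both partners detected on all arrays. Low signal limits the other 5 members: a change too small to bring them to a detection call would not be seen.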
